A study of Mus musculus with 3 samples.

Results

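Iron reached the liver by different routes in the livers compared here: as carbonyl iron in the diet, or as iron already loaded on transferrin and injected. The 2 single-cell RNA libraries, 1 wild-type mouse each, were named IDD+HID and IDD+HTF. Both mice, and the control mouse IDD, had first eaten an iron-deficient diet for 1 week. For the last 18 h the IDD+HID mouse ate food holding 2% carbonyl iron, and the IDD+HTF mouse received 10 mg holo-transferrin (iron-loaded transferrin, the plasma iron carrier) by tail vein; the sources used here do not give the time from injection to sampling, the strain, the sex or the age. Livers were digested with collagenase and pronase, and a small part of the hepatocyte suspension was added to the non-parenchymal cells before droplet capture, so the share of hepatocytes was set partly by mixing. Cells were kept from 1000 UMIs (unique molecular identifiers, 1 per captured RNA) and 300 genes upwards, with no more than 20% of UMIs mitochondrial, then clustered and named from marker genes after the 5 and 7 barcodes called doublets in IDD+HTF and IDD+HID were removed. Of 6741 such cells in the 2 libraries, 5790 fell in the 7 classes compared: 2761 in IDD+HTF and 3029 in IDD+HID, out of 8052 cells in the series.

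Liver iron is regulated by hepcidin, encoded by Hamp, which hepatocytes secrete and which removes the iron exporter ferroportin (Slc40a1) from cell surfaces. Sinusoidal endothelial cells make the ligands Bmp6 and Bmp2, which act on hepatocytes through SMAD proteins to raise Hamp. Kupffer cells, the resident macrophages, recycle iron from red cells through heme oxygenase (Hmox1). The transcription factor NRF2 drives antioxidant genes such as Nqo1 and Gclm, and MTF1 drives the metallothioneins in response to zinc. The series title asks about endothelial Bmp6 and iron that is not bound to transferrin. The RNA counts used here do not measure such iron, so its part in the differences below was not tested.

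Values are UMI counts of a class scaled to a class total of 1000000 (CPM). Where 3 levels follow each other they belong to IDD, IDD+HTF and IDD+HID, in that order, and a ratio is IDD+HID over IDD+HTF. Each group is 1 mouse, so no replicate error or test across mice exists; each ratio carries an exact conditional binomial 95% interval that covers counting error only, and mouse, library and treatment cannot be told apart. A gene was measured in a class when the 2 libraries together held at least 100 UMIs. Thresholds of 1.5-fold or 2-fold are rules of size. The same ratio in droplets with 100 or fewer UMIs, which hold free RNA, is given beside some genes of several classes.

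The libraries differed in depth and in make-up. Total UMIs were 55478904 in IDD+HTF and 75404660 in IDD+HID, and the median UMIs per cell were 4449 and 8596. In the same order, the doublet caller marked 0.156% and 0.198% of barcodes, too few for it to have worked, so doublets remain; any pair of libraries shared 1 cell barcode. The endothelial class held 800 and 1187 cells (IDD+HTF, then IDD+HID), Kupffer 496 and 663, hepatocyte 990 and 257, stellate 92 and 85, B 180 and 458, T 131 and 257, and plasmacytoid dendritic 72 and 122. Every list of own markers was detected in full in all 7 classes. Markers of other classes also moved: in the T class the summed sinusoidal markers were 171 CPM in IDD+HTF and 932 in IDD+HID, and Kupffer markers 105 and 456. In the plasmacytoid dendritic class Kupffer markers were 38.2 and 433 CPM. In the stellate class sinusoidal markers were already 10140 and 12700 CPM. Conventional dendritic cells formed a cluster too small for comparison.

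Promoter letters are shown first for genes whose differences are described below: Mt1 and Slc30a1, known targets of MTF1, and Gclm, Txnrd1 and Srxn1, known targets of NRF2. Sequences are RefSeq promoters of GRCm38.p6 (250 bases before to 50 after the start), on the gene's strand, 5′ to 3′. Capitals mark the metal response letters TGCACNC or TGCGCNC in Mt1 and Slc30a1, and the antioxidant response letters TGACNNNGC in the others, searched on both strands; a match on the other strand is capitalised where it lies and reads there as the reverse complement.
Mt1, chr8:94178839-94179138, plus strand: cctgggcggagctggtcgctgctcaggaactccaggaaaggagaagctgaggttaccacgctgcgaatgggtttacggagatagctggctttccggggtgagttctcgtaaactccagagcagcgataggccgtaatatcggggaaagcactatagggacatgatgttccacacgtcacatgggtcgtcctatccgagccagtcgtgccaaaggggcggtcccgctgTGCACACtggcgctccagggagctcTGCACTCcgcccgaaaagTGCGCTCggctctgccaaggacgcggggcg
Slc30a1, chr1:191906531-191906830, plus strand: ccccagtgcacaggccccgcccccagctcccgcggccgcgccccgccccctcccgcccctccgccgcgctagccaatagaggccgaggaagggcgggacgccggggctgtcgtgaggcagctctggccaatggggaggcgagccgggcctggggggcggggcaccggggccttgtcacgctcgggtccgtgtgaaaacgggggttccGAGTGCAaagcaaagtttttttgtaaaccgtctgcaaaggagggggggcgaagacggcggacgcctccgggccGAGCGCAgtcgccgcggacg
Gclm, chr3:122245307-122245606, plus strand: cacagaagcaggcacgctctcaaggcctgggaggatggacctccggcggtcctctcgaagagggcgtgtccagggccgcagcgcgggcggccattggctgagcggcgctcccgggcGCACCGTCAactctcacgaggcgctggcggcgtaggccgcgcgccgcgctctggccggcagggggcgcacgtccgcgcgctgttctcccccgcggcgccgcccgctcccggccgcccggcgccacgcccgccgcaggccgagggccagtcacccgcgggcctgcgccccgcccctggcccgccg
Txnrd1, chr10:82858956-82859255, plus strand: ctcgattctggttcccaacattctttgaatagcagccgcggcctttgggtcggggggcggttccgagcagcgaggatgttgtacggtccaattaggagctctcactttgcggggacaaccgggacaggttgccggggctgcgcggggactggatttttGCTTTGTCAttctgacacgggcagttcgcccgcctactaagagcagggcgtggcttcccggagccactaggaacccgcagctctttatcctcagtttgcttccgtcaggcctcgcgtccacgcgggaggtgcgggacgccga
Srxn1, chr2:152105274-152105573, plus strand: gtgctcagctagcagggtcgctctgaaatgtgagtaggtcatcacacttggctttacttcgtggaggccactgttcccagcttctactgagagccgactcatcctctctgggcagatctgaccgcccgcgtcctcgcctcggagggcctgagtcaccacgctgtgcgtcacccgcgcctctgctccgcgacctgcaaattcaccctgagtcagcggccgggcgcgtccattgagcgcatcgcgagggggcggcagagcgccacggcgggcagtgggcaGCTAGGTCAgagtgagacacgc
The Mt1 window held 3 metal response matches and the Slc30a1 window 2; of 32851 promoters of this length, 25.7% held at least 1. Each of the other 3 windows held 1 antioxidant match, found in 12.4% of all promoters. Gclm also held 3 metal response matches, Srxn1 1, and Slc30a1 1 antioxidant match, not capitalised here. The table holds 3 starts of Txnrd1, of which the one printed has the match. The antioxidant letters can overlap the AP-1 letters TGANTCA, which had 2 matches in Srxn1 and are in 7.81% of promoters. The windows of Nqo1 and Ftl1 held no antioxidant match; a match describes letters only.

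In endothelial cells Bmp6, the ligand named in the series title, stood at 60.7, 98.6 and 150 CPM. The ratio was 1.52 (1.39 to 1.68), and the level was highest with the diet. The sinusoidal clusters alone gave 1.51 (1.37 to 1.67) and the vascular cluster, of 71 and 119 cells, 1.86 (1.26 to 2.82). In the largest endothelial cluster alone the log2 ratio of Bmp6 was 0.49, under 1.5-fold. Bmp2, the partner ligand, differed less: 1588, 2432 and 2764 CPM, a ratio of 1.14 (1.11 to 1.16). Id1, a direct SMAD target, was at 249, 425 and 343 CPM, a ratio of 0.808 (0.769 to 0.849). Smad6, a feedback inhibitor, had a ratio of 0.795 (0.741 to 0.853), and Smad7, another, 1.04 (0.985 to 1.11). Of the 10 measured genes of the BMP list 2 were at least 1.5-fold higher, Hamp (made by hepatocytes, here at 9.80 and 32.9 CPM, with a droplet log2 ratio of 1.21) and Bmp6, and none lower. Across the class 3.75% of 11149 measured genes were higher and 8.84% lower by this rule. TMM scaling moved the split to 6.31% and 6.66%. In Kupffer cells Bmp6 was at 4.73 and 11.3 CPM, a ratio of 2.38 (1.58 to 3.68), beside summed sinusoidal markers at 2161 and 2971 CPM. With the 28 of 496 and 50 of 663 Kupffer cells that also hold sinusoidal markers left out, Bmp6 was under the minimum of 100 UMIs there. The Kupffer log2 ratio of Bmp2 went from 0.58 to -1.24. Bmp2 is itself one of the sinusoidal markers that set which cells were left out, so its change cannot be read apart from that filter.

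Several antioxidant genes of endothelial cells were higher with the diet. Of 24 measured NRF2 targets 11 were at least 1.5-fold higher and 1, Ephx1, lower, against 3.75% and 8.84% of all genes of the class, with a median log2 ratio of 0.43 against 0.00 over all genes. Nqo1, a quinone reductase, was at 9.54, 7.27 and 30.8 CPM, a ratio of 4.24 (3.09 to 5.96). Hmox1, which opens the heme ring, was at 31.4, 56.0 and 169 CPM, a ratio of 3.02 (2.69 to 3.40). Gclm, the modifier subunit of glutamate-cysteine ligase, which makes a glutathione precursor, was at 41.6, 47.5 and 135 CPM, a ratio of 2.84 (2.50 to 3.23). For Nqo1 and Gclm the IDD and IDD+HTF levels were close and IDD+HID stood apart. Txnrd1, thioredoxin reductase, had a log2 ratio of 1.47 and Srxn1, sulfiredoxin, chosen after its value was seen, 1.26; these are the genes whose antioxidant letters are printed above. In droplets Hmox1 and Nqo1 had log2 ratios of -0.35 and -0.80, opposite in sign to the endothelial class.

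Iron storage and export genes of endothelial cells were also higher. Ftl1, the ferritin light chain, was at 838, 1232 and 2808 CPM, a ratio of 2.28 (2.22 to 2.34). Fth1, the heavy chain, had a ratio of 1.38 (1.33 to 1.44), under the rule. Slc40a1, ferroportin, was at 146, 245 and 417 CPM, a ratio of 1.70 (1.60 to 1.80), and 2.79 (2.23 to 3.53) in the vascular cluster. The metallothioneins, which bind zinc, went the same way: Mt1 was at 453, 845 and 1968 CPM, a ratio of 2.33 (2.26 to 2.40). Mt2 had a ratio of 2.90 (2.70 to 3.12). Slc30a1, a zinc exporter of the plasma membrane, had a ratio of 1.53 (1.32 to 1.77). Tfrc, the transferrin receptor, was at 8.12 and 8.31 CPM in the 2 compared libraries. Slc39a14, an importer of iron not bound to transferrin, was at 7.10 and 5.13 CPM, with an interval that holds 1.

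Kupffer cells differed from endothelial cells in several of these genes. Hmox1 was at 1249, 1248 and 782 CPM, a ratio of 0.627 (0.607 to 0.647). The 3 Kupffer clusters had ratios of 0.712, 0.550 and 0.681. Erythroid markers in the class summed to 56.7 CPM in IDD+HTF and 7.65 in IDD+HID, and their part in the result was not tested. Slc30a1 had a ratio of 0.636 (0.574 to 0.703), again opposite to endothelial cells. Tfrc was at 85.7, 67.1 and 40.2 CPM, a ratio of 0.599 (0.520 to 0.689). Ftl1 had a ratio of 1.40 (1.38 to 1.41), Fth1 0.988 and Slc40a1 0.945, and none of the 3 passed 1.5-fold. Mt2 did, at 6.71 and 28.9 CPM, a ratio of 4.31 (3.12 to 6.08), but was under the minimum of 100 UMIs once the Kupffer cells with sinusoidal markers were left out. Of 23 measured NRF2 targets none was higher and 1, Hmox1, lower, in a class where 5.37% of 9966 genes were higher and 5.58% lower. In its largest cluster none of 22 was past 1.5-fold either way. The difference between the classes was not tested.

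**Figure D1:**
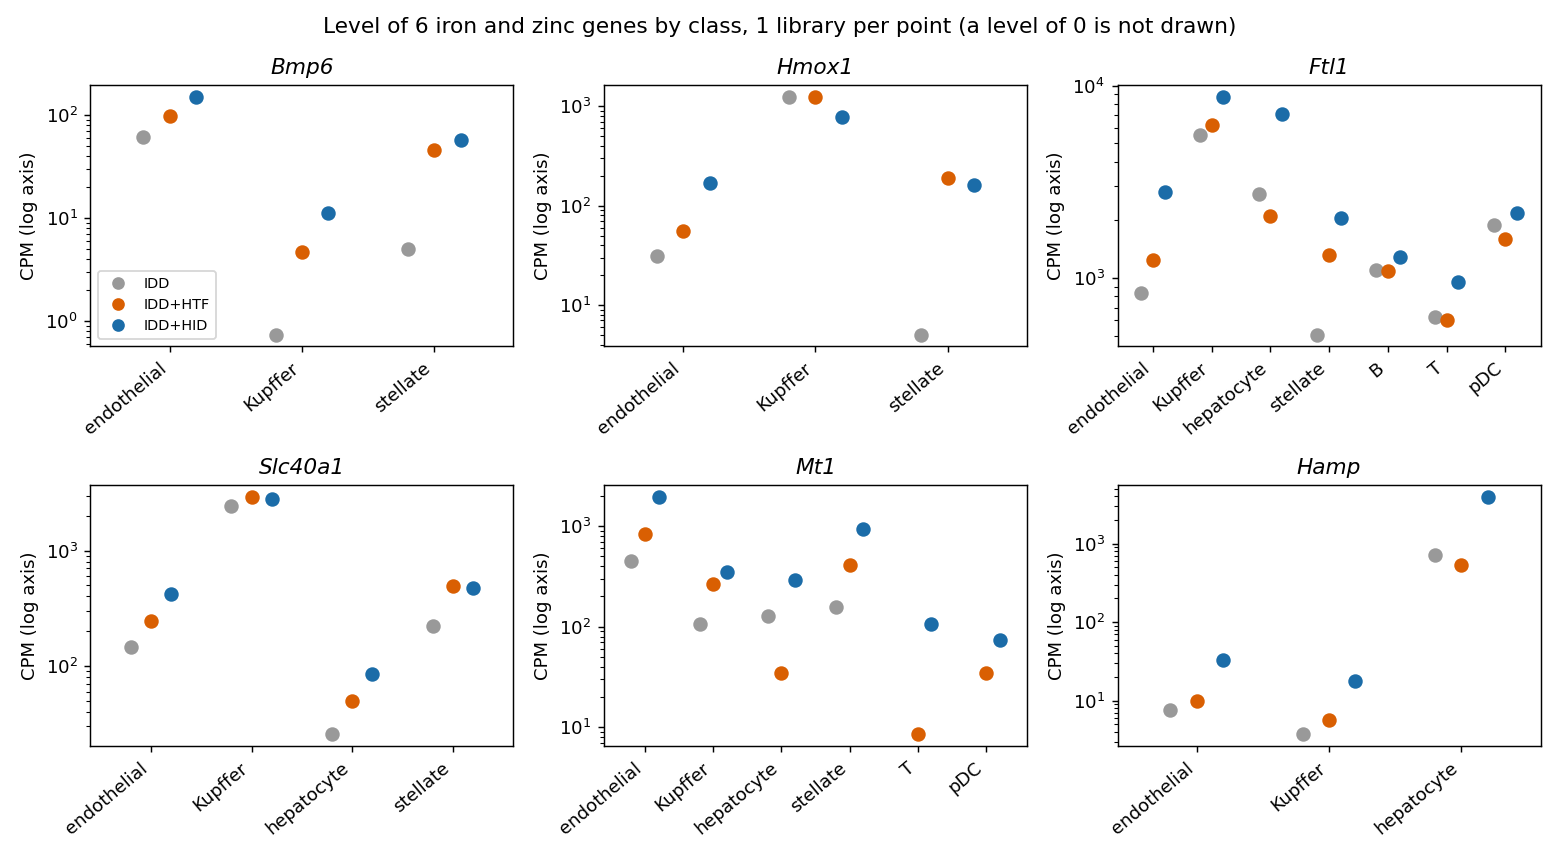
CPM (log axis) of 6 genes in each class where the gene was measured, 1 point per library (pDC, plasmacytoid dendritic). Endothelial Bmp6, Hmox1, Ftl1, Slc40a1 and Mt1 are highest in IDD+HID, whereas Kupffer Hmox1 is lowest there at 782 CPM.

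Some cytokine and immediate early genes were higher in Kupffer cells with the diet. Of 22 measured genes of the NF-kB and cytokine list 10 were higher and 2 lower, against 5.37% and 5.58% of all genes, with a median log2 ratio of 0.45 against 0.04 over all genes. Cxcl2, a neutrophil chemokine, was at 117, 120 and 890 CPM, a log2 ratio of 2.90. Cxcl1, of the same family, had a log2 ratio of 2.20 and Tnfaip3, a feedback inhibitor of NF-kB, 1.34, while Ccl5, a T cell chemokine, had -1.44. Cluster make-up moved with these genes: the cluster with Cxcl2 among its leading genes held 141 cells of IDD+HTF and 306 of IDD+HID. Within the largest Kupffer cluster, of 289 and 262 cells, Cxcl2 was 2.37-fold higher (2.11 to 2.66), 6 of 22 list genes were higher and 2 lower, and the median log2 ratio was -0.04, where 7.8% of 7900 genes were higher and 5.46% lower. Of 22 immediate early genes, which respond within minutes to many stimuli including dissociation, 12 were higher and none lower in the class, and 5 and none in that cluster. Fosb had a log2 ratio of 1.33, Egr2 1.16, Ier2 1.13 and Klf4 1.05.

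MHC class II genes were higher with the diet in Kupffer cells too, and for the 3 genes given here IDD+HTF was lowest and IDD highest. Ciita, the master activator of these genes, was at 104, 23.0 and 82.8 CPM, a log2 ratio of 1.85 (1.59 to 2.11). H2-Ab1 was at 6067, 1590 and 3600 CPM and H2-Eb1 at 5070, 1218 and 2718. The list holds 12 measured genes of antigen presentation, class I pathway genes such as B2m and Tap1 among them. In Kupffer cells 7 were higher (Cd74, H2-Aa, H2-Ab1, H2-Eb1, H2-DMa, H2-DMb1 and Ciita, all of the class II pathway) and none lower, against 5.37% and 5.58% of all genes. In the largest cluster 7 were higher and none lower, against 7.8% and 5.46%. In B cells 1 of the 12, Ciita, was higher and none lower, against 10.5% and 4.83%. B markers summed to 77 CPM in IDD+HTF and 118 in IDD+HID within the Kupffer class, and their part in the result was not tested.

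In hepatocytes Hamp was higher with the diet, in a class made up differently in the 2 libraries. It was at 725, 535 and 3962 CPM, a ratio of 7.40 (6.96 to 7.87), and Hamp2 had a ratio of 6.10 (4.96 to 7.54). Of the hepatocytes, cluster 2 held 646 cells of IDD+HTF and 78 of IDD+HID, cluster 6 held 199 and 176, and cluster 12 held 145 and 3. Ribosomal RNA and repeats took 31.0% of the UMIs of the class in IDD+HTF and 8.47% in IDD+HID. Over the whole class 61.8% of 2653 genes were higher and 17.5% lower, with a median log2 ratio of 1.01. TMM scaling, which moves that median to -0.02, gave 23.1% and 35.8%. Cluster 6, best filled by both libraries, gave 20.8% and 8.84% of 1561 genes. In that cluster Hamp was at 2398, 1723 and 4657 CPM, a ratio of 2.70, and Hamp2 had a ratio of 2.11. Hamp was itself among the leading genes of cluster 6, although genes of the lists, Hamp among them, were left out of the clustering. Mt1 had a ratio of 2.93 there and Gclm 1.72. Ftl1, at 3.42-fold in the whole class, was at 1.21 in cluster 6, and Fth1 went from 1.70 to 0.460. In cluster 2 the ratios were 7.36 for Hamp, 3.09 for Ftl1 and 3.26 for Fth1, so Fth1 differed in direction between the clusters. Sinusoidal markers in the class summed to 221 and 1215 CPM and Kupffer markers to 154 and 485, and their part was not tested. Tfr2, an iron sensor of hepatocytes, had a ratio of 0.809 (0.637 to 1.02) in the class, a log2 ratio of -0.31. It turned to 1.23 in cluster 2, and TMM scaling gave -1.34, so no direction is given for Tfr2.

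Most measured genes of fat oxidation were higher in hepatocytes, and several acute phase genes lower. Of 14 measured fasting and fat oxidation genes 12 were higher and 1 lower, in a class with 61.8% of genes higher and 17.5% lower. In cluster 6, with 20.8% higher and 8.84% lower, all 8 measured were higher. Cyp4a10, a fatty acid hydroxylase with close copies among its relatives, was at 0, 4.84 and 145 CPM, and Cyp4a14 had no UMI in IDD and IDD+HTF and 105 CPM in IDD+HID. Ehhadh, a peroxisomal enzyme of beta oxidation, had a log2 ratio of 3.76 in the class and 2.52 in cluster 6, and Hadha, a mitochondrial one, 3.08 and 1.80. Of 13 acute phase genes 8 were lower and none higher, and 5 and none in cluster 6, beside the same shares. Saa1, serum amyloid A, was at 333, 563 and 113 CPM, a log2 ratio of -2.32, and -3.30 in cluster 6.

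**Figure D2:**
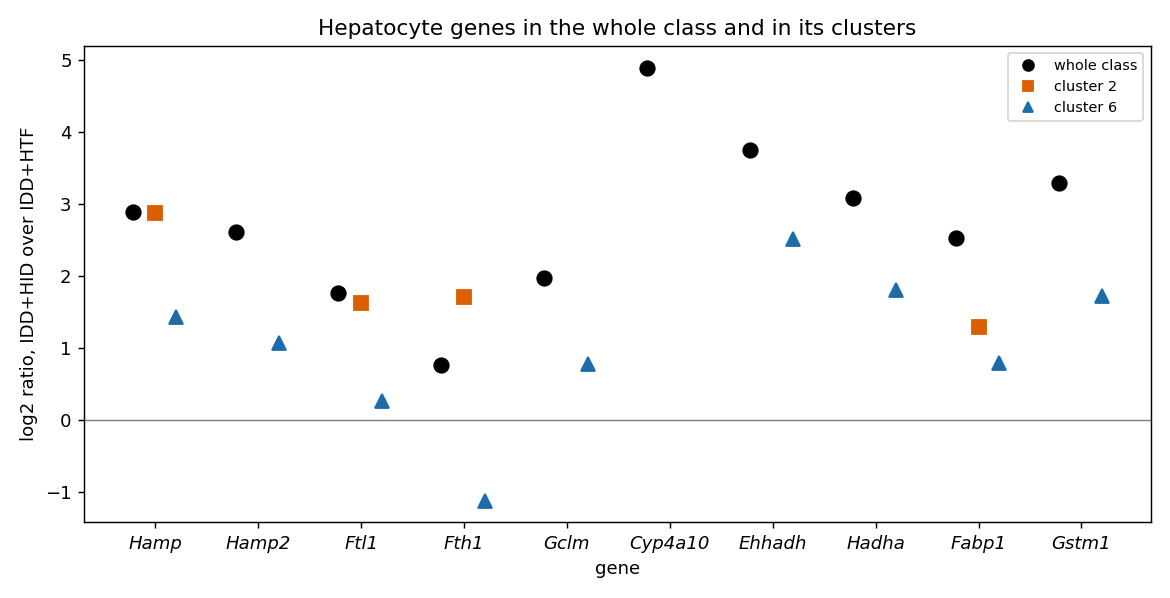
Log2 ratio of CPM, IDD+HID over IDD+HTF, of 10 hepatocyte genes in the whole class (black circles) and in clusters 2 and 6 (squares and triangles, where measured). Hamp is at 2.89 in the class and 1.43 in cluster 6, and Fth1 is above 0 in the class and at -1.12 in cluster 6.

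Heat shock genes were lower with the diet in B and plasmacytoid dendritic cells. In B cells Hspa1a, an inducible HSP70, was at 3677, 1467 and 136 CPM, a log2 ratio of -3.43 (-3.62 to -3.25). Its near-identical copy Hspa1b, from which reads may be shared, had -3.39, and Dnajb1, an HSP40 cochaperone, -1.45. Of 12 measured chaperones 7 were lower and none higher, in a class where 10.5% of 4200 genes were higher and 4.83% lower. Of 11 in plasmacytoid dendritic cells 6 were lower and none higher, against 6.06% and 3.81% of 3595 genes. In T cells 4 of 12 were lower and 2 higher, against 10.6% of 3941 genes higher and 4.95% lower, and in endothelial cells 4 of 14 lower and none higher. With cells holding sinusoidal or Kupffer markers left out, T cells had 2 of 11 lower and 2 higher (background 10% higher and 5.07% lower), and plasmacytoid dendritic cells 6 of 11 lower and none higher (5.43% and 4%). B cells also had 5 of 18 immediate early genes lower and none higher, led by Jun at a log2 ratio of -1.63. In stellate cells the same list had 10 of 19 higher and none lower, led by Fosb at 1.53, against 9.68% higher and 6.71% lower of 4557 genes. With the 40 of 92 and 33 of 85 stellate cells that hold such markers left out, 9 of 12 were higher and none lower, against 14% and 11.4% of 1326 genes.

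**Figure D3:**
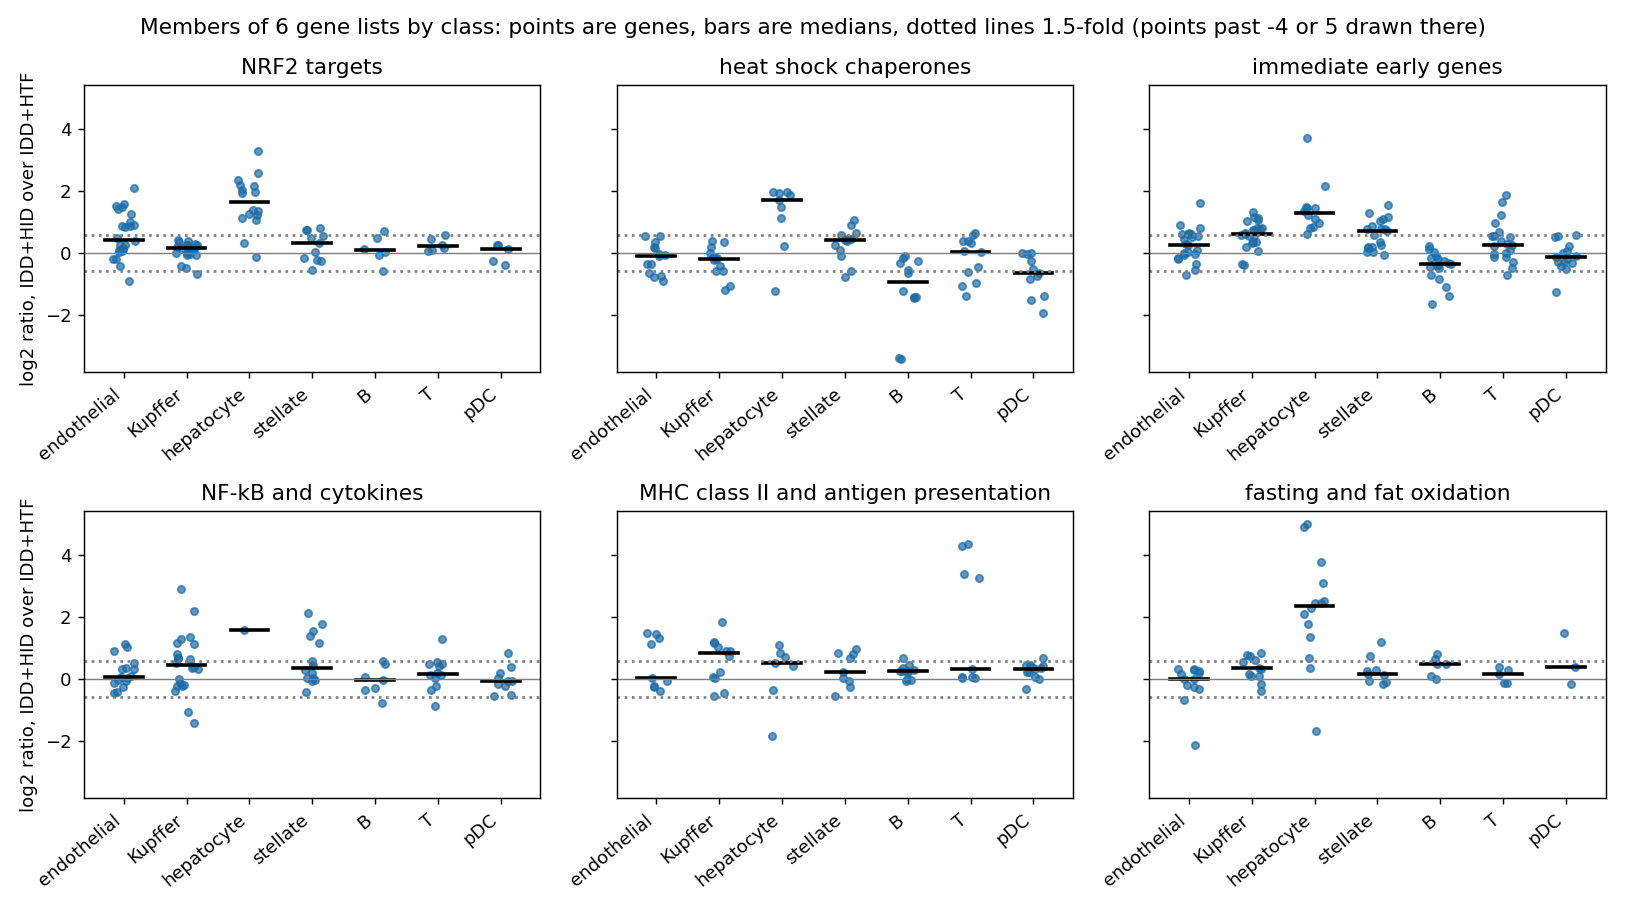
Log2 ratios, IDD+HID over IDD+HTF, of the measured members of 6 lists by class (pDC, plasmacytoid dendritic); points are genes, bars medians and dotted lines 1.5-fold. NRF2 targets lie above 0 in endothelial cells (median 0.43), and the B cell heat shock genes reach -3.43.

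Genes shared by many classes were few. By the rule of 1.5-fold in the same direction in at least 5 measured classes, and the other way in none, 30 genes were higher (0.917% of 3272 genes measured in at least 5 classes) and 62 lower (1.89%). Past 1.5-fold in all 7 classes were 8 and 24 of them. Of those measured in droplets, 22 of 28 higher genes and 45 of 59 lower genes were past 1.5-fold in the same direction there too, where 10.9% of 3886 genes were higher and 9.52% lower. Of the 62 lower genes 37 have an established name; the others are numbered gene models, pseudogenes and noncoding RNAs.

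Ribosomal protein genes stood on both sides. Rps2, of the small subunit, was at 346, 170 and 731 CPM in endothelial cells and 2120, 668 and 1936 in B cells. Its log2 ratio lay between 1.53 and 2.58 in the 7 classes and was 1.32 in droplets. Rpl24, Rpl7, Rpl7a, Rpl18 and Rpsa were named with it. Rpl36a, of the large subunit, was at 92.7, 273 and 145 CPM in endothelial cells and 476, 1278 and 360 in B cells, and lower in 5 of 7 classes. In B cells IDD lay near IDD+HID for both of these genes and IDD+HTF stood apart, whereas endothelial Rps2 in IDD lay between the other libraries. Ribosomal protein genes have many pseudogene copies that can share reads. Over 81 such genes in endothelial cells 28 were higher and 9 lower, and in B cells 13 and 17. The 11 with coding transcripts of at most 500 bases had a median log2 ratio of -0.46 in endothelial and -0.98 in B cells, against 0.45 and 0.20 for the 35 over 800 bases. Across these genes, which share libraries and are not replicates, Spearman's rho of ratio with length was 0.35 and 0.37. Pearson's r was lower, at 0.18 and 0.17, and the part of length in the result was not tested.

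**Figure D4:**
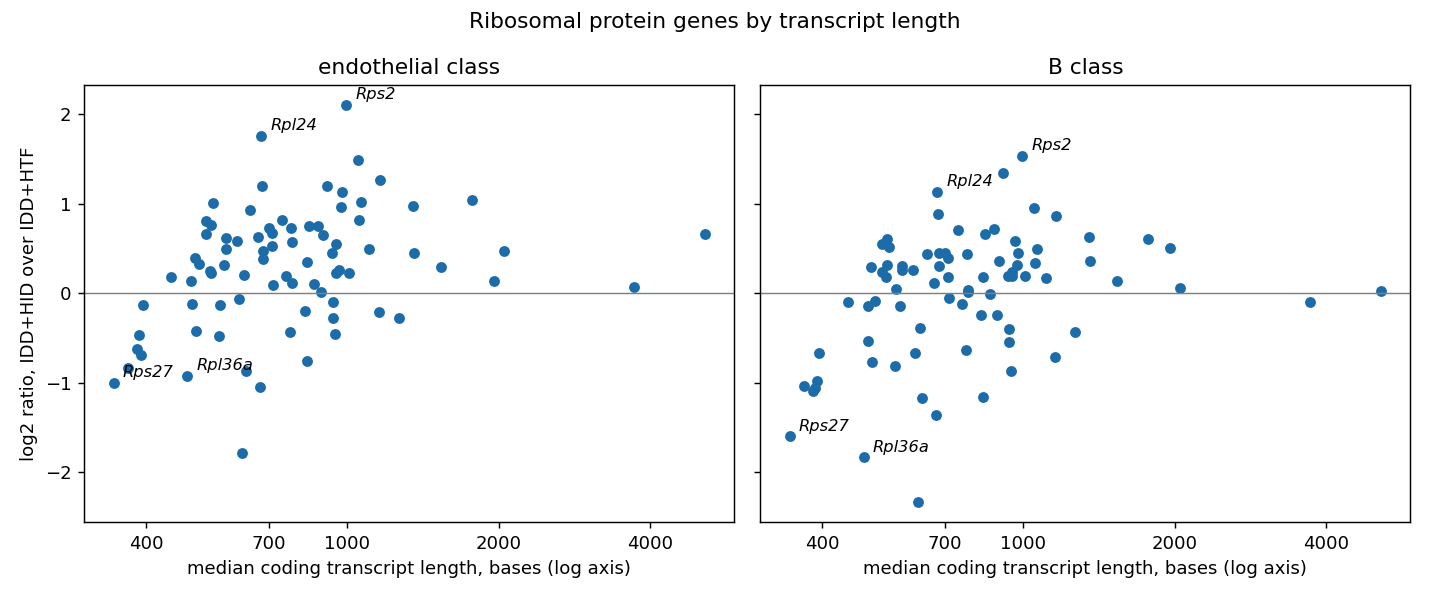
Log2 ratio of CPM, IDD+HID over IDD+HTF, of ribosomal protein genes against median coding transcript length (bases, log axis) in endothelial and B cells. Rps2 and Rpl24 lie above 0 and Rpl36a and Rps27 below it in both classes.

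Other shared genes included Noct and genes of hepatocytes and mitochondria. Noct, a gene whose RNA cycles daily, was at 118 CPM in IDD+HTF and 248 in IDD+HID in endothelial cells and at 455 and 1034 in T cells. It was higher in all 6 classes where it was measured, and in droplets its log2 ratio was 0.78. The sources used here do not give the hours of sampling. Mup20, a urinary protein of hepatocytes, had its log2 ratio between -1.83 and -0.32, and -1.02 in droplets. Lrp4, a low-density lipoprotein receptor family member, Klkb1, plasma prekallikrein, and Pigr, the immunoglobulin transporter, were lower in every class where they were measured, and in droplets at -1.89, -1.70 and -0.81. With free RNA taken off, the endothelial log2 ratios of Lrp4 and Klkb1 turned to 4.16 and 1.18. In the other classes with a value both stayed below 0. Lrp4 was at -5.47 in B and -0.58 in Kupffer cells, and Klkb1 at -7.30 and -0.79. Levels left by the subtraction were held at a floor of 3 counts, which can set such ratios, so no direction is drawn from them. The mitochondrial tRNA genes mt-Ta and mt-Tp were lower in all 7, and in droplets at -1.08 and -0.97. Among the named shared genes Plpp3 and Ptprb, both abundant in endothelial cells, and the class II genes H2-Aa and Cd74 had T cell log2 ratios of 4.17, 3.46, 3.38 and 3.26, beside the higher sinusoidal and Kupffer marker sums given above, whose part in the result was not tested. With cells holding those markers left out, Plpp3 and Ptprb were no longer measured in T cells. H2-Aa and Cd74 had log2 ratios of 2.66 and 2.96 there. This filter did not use B or dendritic markers. In the whole T class B markers summed to 241.9 CPM in IDD+HTF and 341.9 in IDD+HID. Plasmacytoid dendritic markers summed to 277.5 and 410.8 CPM, and the part of both was not tested. With the same cells left out, endothelial H2-Aa went from 1.12 to 0.55, under 1.5-fold, and endothelial Cd74 from 1.315 to 0.803. In Kupffer cells the log2 ratios of Plpp3 and Ptprb went from 0.76 and 0.98 to -0.41 and -0.24. Ptprb, unlike Plpp3, is one of the sinusoidal markers that set which cells were left out. Its change in T and Kupffer cells cannot be read apart from that filter. Kupffer H2-Aa and Cd74 were at 1.09 and 0.949 with those cells left out. Mt1 was past 1.5-fold in endothelial, hepatocyte, stellate, T and plasmacytoid dendritic cells and at 1.30-fold in Kupffer cells, and its droplet log2 ratio was 1.14. With cells holding sinusoidal or Kupffer markers left out, Mt1 was no longer measured in T and plasmacytoid dendritic cells.

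**Figure D5:**
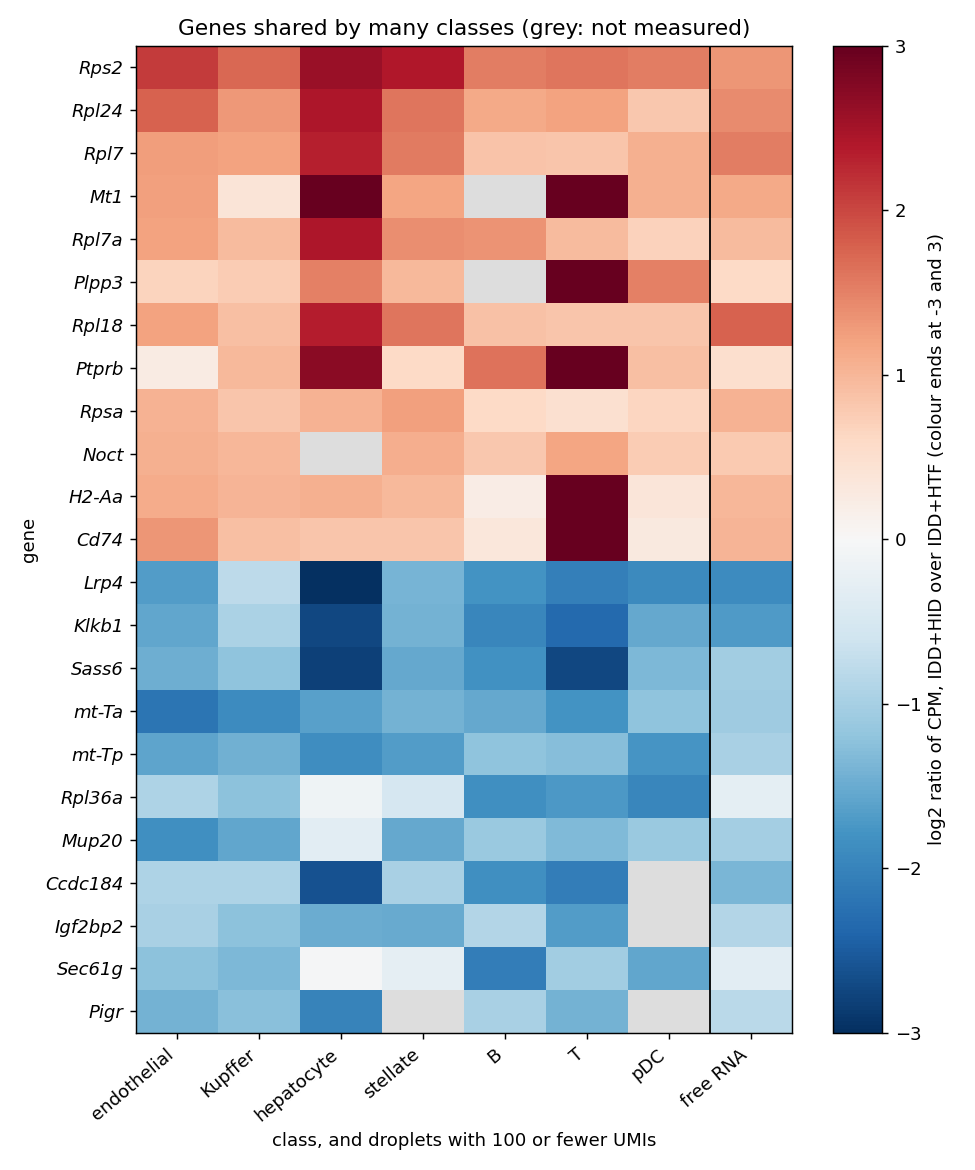
Log2 ratio of CPM, IDD+HID over IDD+HTF, of named shared genes by class (pDC, plasmacytoid dendritic) and, right of the line, in droplets with 100 or fewer UMIs; grey cells were not measured. Rps2 is red and mt-Ta blue in every column, free RNA included.

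Genes of 1 class, at least 2-fold in 1 class and under 1.5-fold in all others where measured, numbered 680 higher (16.1% of 4233) and 82 lower (1.94%). Hepatocytes held 625 and 72 of them; with hepatocytes of cluster 6 alone the totals were 116 and 19. Kupffer cells had 11 higher and 3 lower. Cxcr4, a chemokine receptor, was at 11.9 and 52.6 CPM and Lsp1, a leukocyte actin-binding protein, at 10.5 and 33.2. Ighm, an immunoglobulin heavy chain and a B cell marker, was at 2.29 and 18.5. In the Kupffer class B markers summed to 77 and 118 CPM and T markers to 22.6 and 36. The part of these markers was not tested. Lower were Nabp1, a single-stranded DNA binding protein (190 and 91.6 CPM), Mllt6 and Serpina3g. Endothelial cells had Gng2, a G protein subunit, and Mpeg1, a macrophage gene, higher, with log2 ratios of 1.13 and 1.04 beside Kupffer markers at 127 and 199 CPM, and Slfn2, at 21.6 and 6.91 CPM, lower. B cells had 15 higher and none lower, led by Exosc5, an exosome subunit, at 15.7 and 54.5 CPM. T cells had 15 higher and 1 lower, Rcbtb2; Cdk11b, a kinase, was at 131 and 322 CPM. Plasmacytoid dendritic cells had 7 higher and 2 lower: Sgk1, a serum and glucocorticoid regulated kinase, was at 19.8 and 78.3 CPM, and Xdh, xanthine dehydrogenase, at 97.7 and 48.5. Stellate cells had 5 higher and 3 lower, among them Cfp, a complement factor of macrophages, at 161 and 76.2 CPM beside Kupffer markers at 3433 and 2598. In hepatocytes Eci2, of fat oxidation, was at 21.2 and 312 CPM, Gstm1, a glutathione transferase, at 112 and 1100, and Sel1l, of the degradation of misfolded proteins, at 218 and 42.8. Gstm1 was also higher in cluster 6, at 3.30-fold.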

How the data were processed

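The 3 mouse liver libraries (10x Chromium 3′ v3.1, per the labels' protocols) were measured, 1 mouse each. The authors deposited raw UMI counts per gene and barcode; Seurat 4 and GRCm38 are named per the submitters' processing notes, and the aligner and the counting tool are not stated there or in the labels. Symbols came from GENCODE M21 (54673 of 55421 identifiers matched with version, 567 more without). Normalisation and the choice of 2000 variable genes used scanpy 1.11.5, and Leiden clustering used igraph 0.11.9 (30 components, 15 neighbours, resolution 1). Genes of the 23 lists, ribosomal RNA, repeats and mitochondrial genes were left out of the clustering. Clusters were named from 19 marker lists, and naming thresholds and length bins were set after seeing the data. Counts were summed per class and library, and ratios given exact conditional binomial 95% intervals. A floor of 3 counts was used where a library had none, and for levels that fell below it once free RNA was taken off. The ratios, intervals and rules of size were run on simulated counts that held counting error only. That run could not cover differences between mice, free RNA or doublets. Alternatives included edgeR 4.0.16 TMM factors.

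Named were 19 fixed genes, up to 12 shared genes per direction by the interval bound nearest 0, up to 3 genes of 1 class per class and direction, and the largest members of each of 23 lists. Members and lists were chosen with earlier results of these data known. Classes under 50 cells in either library were not compared. Values of 3 named genes are not reported here.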

Additional observations from a re-analysis of the deposited data

Results flagged for a closer look

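The ratios of 2 fixed genes, IDD+HID over IDD+HTF, were past 1.5-fold in opposite directions in endothelial and Kupffer cells. Other fixed genes also differed in sign but not past 1.5-fold both ways, such as Slc40a1 at log2 ratios of 0.7652 and -0.08105. The log2 ratio of Hmox1 was 1.594 in endothelial and -0.6742 in Kupffer cells, and that of Slc30a1 was 0.6093 and -0.6535. With 1 mouse per group the difference between the cell classes was not tested.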

How the results depend on the processing

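No paired analysis was possible because each group is 1 library; leaving out a replicate was not run for the same reason. Counts of genes move with the UMI minimum because it sets how many genes are measured; for the other settings the cause was not tested. Of the 12 alternatives, 3 were chosen after seeing the data: the best filled hepatocyte cluster, the sinusoidal clusters alone, and cells with markers of another class left out.

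TMM scaling gave 704 endothelial genes higher, 612 hepatocyte genes higher and 949 lower, and 115 genes of 1 class higher and 266 lower. Median of ratios scaling gave 631 and 934 hepatocyte genes (higher, then lower), 209 and 334 in B cells, 236 and 296 in T cells, and 117 and 273 genes of 1 class. Without ribosomal RNA, repeats and mitochondrial genes in the total, 436 and 152 genes were of 1 class. With at least 50 UMIs the counts higher and lower were 647 and 1614 in endothelial, 811 and 914 in Kupffer, 724 and 662 in stellate, 918 and 390 in B, 949 and 363 in T and 610 and 276 in plasmacytoid dendritic cells, 2685 higher in hepatocytes, and 1131 and 155 of 1 class. With at least 200 UMIs they were 329 and 355 in Kupffer, 244 and 147 in stellate, 158 and 122 in B, 178 and 106 in T and 69 and 82 in plasmacytoid dendritic cells, 559 lower in endothelial cells, 888 higher in hepatocytes, and 317 and 48 of 1 class. In the largest cluster of each class 282 and 172 hepatocyte genes passed, and 132 and 31 of 1 class. In the best filled hepatocyte cluster 325 and 138 passed, and 116 and 19 of 1 class. With cells holding other markers left out, 185 and 151 stellate genes passed.

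The log2 ratio of hepatocyte Fth1 turned to -0.2644 with TMM, -0.2452 with median of ratios and -1.121 in the best filled cluster. Hepatocyte Slc40a1 turned to -0.2429, -0.2237 and, as a mean over cells, -0.01176. Hepatocyte Slc39a14 turned to 0.4973 in the largest cluster, and hepatocyte Cd74 to -0.201 and -0.1818 under the 2 scalings. With mixed cells left out Kupffer Plpp3 turned to -0.4058 and Ptprb, itself one of the markers of that filter, to -0.2359. With free RNA taken off, endothelial Lrp4 turned to 4.157, Klkb1 to 1.18 and Ccdc184 to 3.539. Of the 30 shared higher genes, 26 were also called under TMM and 22 under median of ratios; of the 62 lower, 61 and 62.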
